A study of Homo sapiens with 2 samples.

Results

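LSM11 and 9 proteins that work with it in forming the 3′ end of histone mRNAs were followed in RWPE-1, an immortalized line of noncancerous human prostate epithelium. The cells had been transfected with pre-miR-424, a synthetic precursor of the microRNA miR-424, or with the precursor Negative control #1, each at 30 nM. Total RNA was amplified, coupled to Cy3 or Cy5 and hybridised with both dyes to 2 Agilent arrays, and the dyes were exchanged between them: pre-miR-424 RNA was labelled with Cy5 in the normal labelling and with Cy3 in the dye swap. The members were all probes whose RefSeq accession belongs to LSM11, LSM10, SLBP, ZNF473, CASP8AP2, NPAT, CPSF3, CPSF2, SYMPK or CSTF2. They comprised 10 probes, 1 per gene, of 42405 on the array, and all 10 were among the 13812 genes measured, that is, well above background in every channel and without outlier spots. LSM11 had been singled out because it fell on both arrays, so that its own values are a description. The other genes are known to act with it, and they too were chosen with earlier results of these data known.

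Because the labels call the arrays technical replicates of one comparison, they counted as 1 replicate and no p-value was computed. The SD between arrays covers labelling and hybridisation error only, not differences between cultures. The time between transfection and harvest is not given in the sources used here. Of 9 epithelial markers (among them KRT5, KRT14 and TP63), all were measured and none passed 0.3 in one direction on both arrays. The arrays disagreed most for KRT18 (0.73 and −0.55) and KRT5 (0.09 and −1.09). The prostate luminal markers KLK3, ACP3 and TMPRSS2 were not well above background. Of 8 markers of other cell types, 5 were measured (PTPRC, CDH5, COL1A1, COL3A1 and DES), with mean log2 ratios between −0.07 and 0.10, and CD3E, PECAM1 and MYH11 were not well above background.

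Most mRNAs are cut and then given a poly(A) tail, but the mRNAs of the replication-dependent histones, made while DNA is copied, end in a stem-loop with no tail. The stem-loop is bound by SLBP, and a sequence just downstream pairs with the U7 small nuclear ribonucleoprotein (snRNP), whose ring of Sm proteins holds LSM10 and LSM11 in place of 2 of the spliceosomal Sm proteins. LSM11 and FLASH, the product of CASP8AP2, together recruit a cleavage complex in which CPSF3 is the endonuclease. The amplification method used here starts from poly(A) tails, which bears on how histone mRNAs themselves were sampled, while the mRNAs of the processing factors carry tails.

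The mature sequences of miR-424 are shown with the seed, bases 2 to 8, in capitals, because a microRNA recognises mRNAs mainly through this stretch. The sequence of the transfected precursor itself was not examined. The mature sequences come from RefSeq (GRCh38.p14), where miR-424-5p lies on the minus strand at chrX:134546680-134546701 and the opposite arm at chrX:134546644-134546664. A pair of relatives with the same seed are given beside them.
hsa-miR-424-5p: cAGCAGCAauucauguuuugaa
hsa-miR-424-3p: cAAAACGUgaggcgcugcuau
hsa-miR-16-5p: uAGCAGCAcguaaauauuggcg
hsa-miR-15a-5p: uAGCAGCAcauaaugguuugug
The seed of miR-424-5p was shared by 6 other mature microRNAs of the table, the 5p arms of miR-15a, miR-15b, miR-16, miR-195, miR-497 and miR-6838, whereas the 3p arm has another seed. The bases of an mRNA that pair with this seed read UGCUGCU. The mRNA sequences of the members were not analysed here for such sites.

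LSM11, the subunit of the U7 snRNP that contacts FLASH, fell 2.50-fold with pre-miR-424 (NM_173491), and no member rose 2-fold (0.0724% of all measured genes did). On the array with normal labelling, its spot had a median signal of 148 over a local background of 62 with pre-miR-424 (Cy5) and of 267 over 22 with control (Cy3). On the dye swap it had 100 over 22 with pre-miR-424 (Cy3) and 470 over 59 with control (Cy5). After background correction and normalization, the log2 level was 6.96 and 7.28 with pre-miR-424 and 8.38 and 8.50 with control, on the normal array and the swap. Both levels with pre-miR-424 thus lay below both levels with control, whichever dye they carried. The log2 ratios of pre-miR-424 over control were −1.42 and −1.22 (mean −1.32, SD 0.14 between arrays). In a bulk measurement, fewer cells that make LSM11 RNA and less of it per cell cannot be told apart.

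LSM11 was among 4 genes lower by at least 2-fold on both arrays, 0.029% of the 13812 measured, and 2 genes had a lower mean ratio. Its mRNA gave a dim spot, at percentile 16.1 of the measured genes in brightness, and the probe was printed once. All genes were ranked by brightness, to which the lowered channels of LSM11 itself contributed, and cut into 10 equal classes. Among the 1381 genes of the class of LSM11, 2 fell 2-fold on both arrays, LSM11 included, and 0 changed 2-fold in opposite directions. As LSM11 was chosen because it fell on both arrays, these counts and its other values describe it and are no test. In these genes the part of the ratio that changed sign with the labelling had an SD of 0.14, and for LSM11 it was −0.10. As each labelling had a single array, this part holds dye effect and array error together. The size of the fall differed between ways of processing. Without background correction the mean ratio was −1.39, and computed by the scanner software, which corrects background and dye in its own way, it was −2.30, a 4.93-fold fall, with ratios of −2.45 and −2.16 on the arrays.

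**Figure D1:**
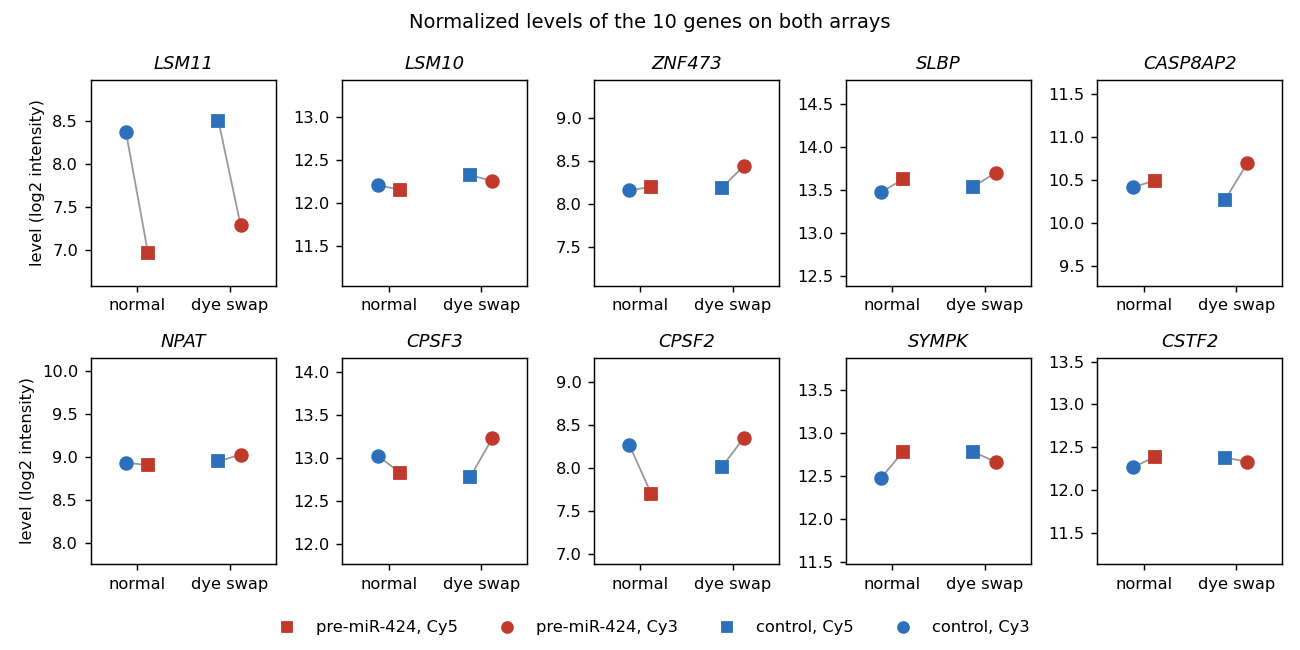
Normalized log2 intensity of the 10 genes (y axis, every panel spanning the same number of log2 units) on the array with normal labelling and on the dye swap (x axis). Red stands for pre-miR-424, blue for control, squares for Cy5 and circles for Cy3, and grey lines join the channels of an array; LSM11 drops on both arrays, from 8.38 to 6.96 and from 8.50 to 7.28, and CPSF2 changes direction between them.

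LSM10, the other protein found in the U7 ring but not in the spliceosomal one, did not follow LSM11. Its log2 level (NM_032881) was 12.16 and 12.26 with pre-miR-424 and 12.21 and 12.33 with control on the normal array and the swap, and these levels overlapped. The ratios were −0.05 and −0.07 (mean −0.06, SD 0.0082), and the ratio of LSM11 minus that of LSM10 was −1.26. LSM10 and LSM11 were the members lower on both arrays (2 of 10, against 26.7% of all measured genes), and LSM10 was far below any threshold used here.

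ZNF473 encodes ZFP100, a zinc finger protein that bridges the U7 snRNP and the stem-loop complex. Its log2 level (NM_015428) was 8.20 and 8.44 with pre-miR-424 and 8.16 and 8.19 with control, slightly above control each time. The ratios were 0.04 and 0.25 (mean 0.15, SD 0.15), so that the difference did not exceed the spread between arrays. Its spot was dim, at percentile 21.6 of the measured genes.

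SLBP, which binds the stem-loop and accompanies the histone mRNA to the cytoplasm, was 1.12-fold higher with pre-miR-424. Its level (NM_006527) was 13.63 and 13.70 with pre-miR-424 and 13.47 and 13.54 with control. The ratios were 0.16 on both arrays (SD 0.0038), and its spots gave 0.20 and 0.11 on the normal array and 0.19 and 0.14 on the swap. All 4 spot ratios were above 0, but they come from the same probe on technical replicates. Of all measured genes, 26.8% were higher on both arrays. The mean ratio of SLBP was 0.14 by the scanner software and 0.10 under median centring, which lowered the median of all genes to −0.04. The difference between the arrays was smaller than that between spots of the same array.

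CASP8AP2, whose product FLASH joins LSM11 and the cleavage complex, had the highest mean ratio of the 10 genes. Its level (NM_012115) was 10.49 and 10.70 with pre-miR-424 and 10.42 and 10.27 with control, so that the groups did not overlap. The ratios, however, were 0.08 in normal labelling and 0.43 in the swap (mean 0.25, SD 0.25), and both spots gave 0.08 on the first and 0.48 and 0.37 on the second. The size of the difference was therefore set by the swap. In all, 3 partners (ZNF473, SLBP and CASP8AP2) had both levels with pre-miR-424 above both control levels, as did 22.2% of all measured genes, and LSM11 alone of the 10 had both below (22.2% of all genes).

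NPAT, the coactivator of histone genes that is activated by cyclin E and CDK2 in histone locus bodies, had levels of 8.90 and 9.03 with pre-miR-424 and 8.94 and 8.95 with control (NM_002519). Its ratios were −0.03 and 0.08 (mean 0.02, SD 0.077). The groups overlapped, and the sign changed between the arrays.

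**Figure D2:**
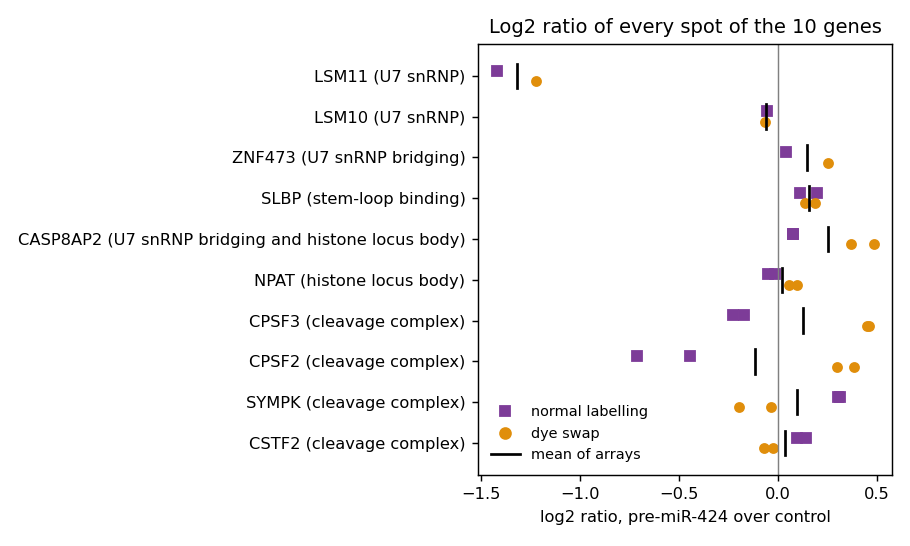
Log2 ratio of pre-miR-424 over control (x axis) for every spot of the 10 genes (y axis, with their roles). Purple squares are spots of the array with normal labelling, orange circles those of the dye swap with the sign turned, and black bars the mean of both arrays; LSM11 stands at −1.42 and −1.22, while the spots of CPSF2 and CPSF3 cluster by array on opposite sides of 0.

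The 4 subunits of the cleavage complex had ratios of opposite sign on the arrays. CPSF3, the endonuclease that cuts both histone and polyadenylated pre-mRNAs, gave −0.20 and 0.45 (NM_016207, mean 0.13, SD 0.46). CPSF2, its catalytically inactive partner, gave −0.58 and 0.34 (NM_017437, mean −0.12, SD 0.65). The scaffold SYMPK gave 0.31 and −0.12 (NM_004819, mean 0.10, SD 0.30), and CSTF2, an RNA-binding subunit that also serves in polyadenylation, gave 0.12 and −0.05 (NM_001325, mean 0.04, SD 0.12). For each of them the SD between arrays exceeded the mean ratio, so that no direction was resolved.

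For all 4 these differences between arrays were larger than those between spots of an array. The spots of CPSF3 differed by 0.055 on the normal array and by 0.0071 on the swap, and those of CPSF2, a dim probe at percentile 19.7 in brightness, by 0.27 and 0.087. Those of SYMPK differed by 0.013 and 0.16, and those of CSTF2 by 0.046 and 0.044. The part of the ratio that changed sign with the labelling was −0.33 for CPSF3 and −0.46 for CPSF2. It was 0.21 for SYMPK and 0.08 for CSTF2. This part restates the difference behind the SD between arrays. As each labelling had a single array, dye effect and array error could not be told apart in it. In the levels, CPSF2 with pre-miR-424 was at 7.69 in Cy5 and 8.35 in Cy3, and control was at 8.27 in Cy3 and 8.01 in Cy5, so that the brighter channel was Cy3 on both arrays. The same was true of CPSF3, at 12.83 in Cy5 and 13.23 in Cy3 with pre-miR-424 and at 13.03 in Cy3 and 12.77 in Cy5 with control.

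Set beside each other, the 9 partners had mean log2 ratios from −0.12 (CPSF2) to 0.25 (CASP8AP2), with a median of 0.10 (0.04 in normal labelling and 0.16 in the swap), and the median of all measured genes was −0.0042. The ratio of LSM11 minus the median of its partners was −1.42 (−1.46 in normal labelling and −1.38 in the swap). In normal labelling the lowest partner was CPSF2, and LSM11 minus CPSF2 was −0.84. In the swap the lowest partner was SYMPK, and LSM11 minus SYMPK was −1.10. None of the 9 partners reached 0.3 in the same direction on both arrays, a threshold passed downwards by 2.62% and upwards by 2.77% of all measured genes. Over all measured genes the median absolute mean ratio was 0.10 and the median SD between arrays was 0.13. The ratios of the arrays correlated at only 0.16 over all measured probes, so that small changes in the partners could hardly be resolved. Of the 9, 3 were higher on both arrays (26.8% of all genes were), 1 was lower on both (26.7% of all genes) and 5 changed sign (46.5% of all genes).

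**Figure D3:**
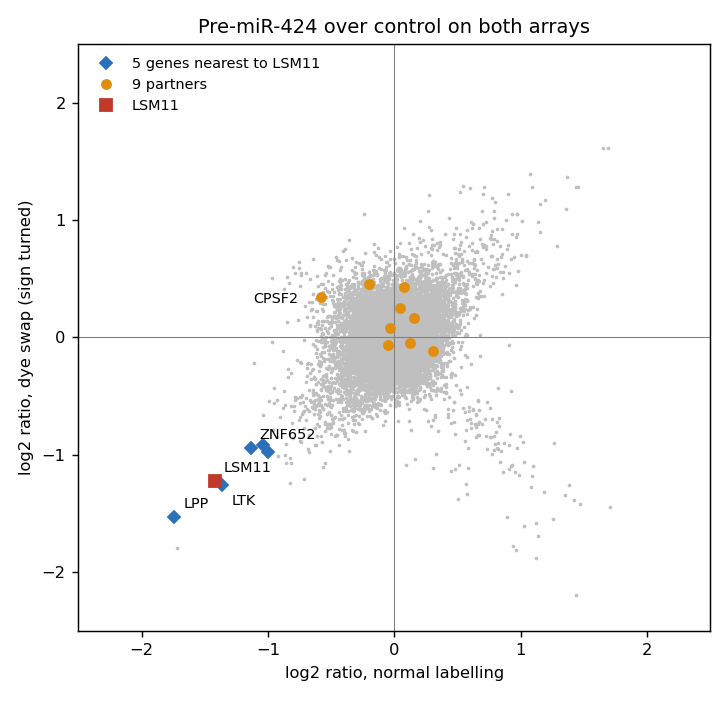
Log2 ratio of pre-miR-424 over control on the array with normal labelling (x axis) and on the dye swap with the sign turned (y axis) for 13812 measured genes (grey), the 9 partners (orange), LSM11 (red square) and the 5 genes nearest to it (blue diamonds). LSM11 lies outside the cloud at lower left, away from its partners, and the points at lower right are genes brighter in Cy5 on both arrays.

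The genes with the most similar pair of ratios were found by the Euclidean distance from LSM11 over the 2 arrays, which amounts to 2 points per gene. LTK, a receptor tyrosine kinase, was nearest, with −1.36 and −1.26 (NM_002344, distance 0.068), less than the SD of LSM11 between arrays. It was followed by ZNF652, a zinc finger repressor, with −1.14 and −0.95 (distance 0.39), and by LPP, a focal adhesion protein, with −1.74 and −1.53 (distance 0.45). CISD3, an iron-sulphur protein of mitochondria, had a mean of −0.99 (SD 0.013), and FHIP1A had −1.04 and −0.92. A second probe of FHIP1A gave −0.59 and −0.38. By the scanner software, the mean ratio of LPP was −2.91, further from 0 than by normexp, as for LSM11. That of LTK was −1.34, of ZNF652 −1.14, of CISD3 −1.02 and of FHIP1A −1.27, against −1.31, −1.04, −0.99 and −0.98 by normexp. As the genes were chosen on the same contrast, their likeness to LSM11 is a description.

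Around the members, 9 lists of related factors held 80 genes, of which 77 were measured. Of these, 2 were higher and 4 lower by at least 0.3 on both arrays (2.60% and 5.19%, against 2.77% and 2.62% of all genes), and the median was 0.02. The medians of all these lists except that of the other LSm proteins changed sign in 1 or 2 of the settings tried. No gene of these lists had a lower mean ratio than LSM11. The Sm proteins that complete the U7 ring had ratios near 0: of 5, 4 were measured (SNRPF had an outlier spot), with means from −0.03 for SNRPG to 0.10 for SNRPB. SNRPD1 and SNRPD2, the spliceosomal subunits whose places LSM10 and LSM11 take, had means of 0.03 and 0.09.

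Most of the other LSm proteins form rings that act in mRNA decay and in the U6 snRNP, or scaffold mRNP granules. All 12 genes of this list were measured, with a median of 0.07. LSM14A, which acts in P-bodies, was the one past 0.3, with 0.42 and 0.38, and LSM5 was the lowest, with −0.22 and −0.26. Neither the 3 measured genes of the cap-binding complex and ARS2 (median 0.10) nor the 15 cleavage and polyadenylation factors (median −0.03) held a gene past 0.3 on both arrays. Among the latter, FIP1L1 was the highest, with 0.22 and 0.27, and CPSF6 the lowest, with −0.34 and −0.13. CSTF2T, the paralogue of CSTF2, had 0.08 and 0.07.

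The Integrator complex, which forms the 3′ ends of small nuclear RNAs with an endonuclease related to CPSF3, had a median of −0.04 over its 14 subunits. INTS5, with −0.31 and −0.52, and INTS3, with −0.33 and −0.42, were lower by at least 0.3 on both arrays. Its endonuclease INTS11 had 0.10 and −0.02 and its partner INTS9 had 0.26 and 0.04.

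Downstream of cleavage, 9 of 10 factors of histone mRNA translation and decay were measured, and the median was 0.02. ERI1, the exonuclease that trims the histone stem-loop end and takes part in its decay, was higher, with 0.51 and 0.40 (mean 0.45, SD 0.077), while the decapping enzyme DCP2 was lower, with −0.45 and −0.32 (mean −0.39, SD 0.090). UPF1, needed for histone mRNA decay, had 0.11 and 0.08. In the list of the histone locus body and histone transcription (8 of 8 measured, median 0.08), CCNE1, the cyclin whose kinase activates NPAT, was lower, with −0.62 and −0.92 (mean −0.77). Its kinase CDK2 had −0.07 and 0.21, the other cyclin E, CCNE2, had 0.19 and 0.09, and coilin (COIL) had −0.17 and −0.03.

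**Figure D4:**
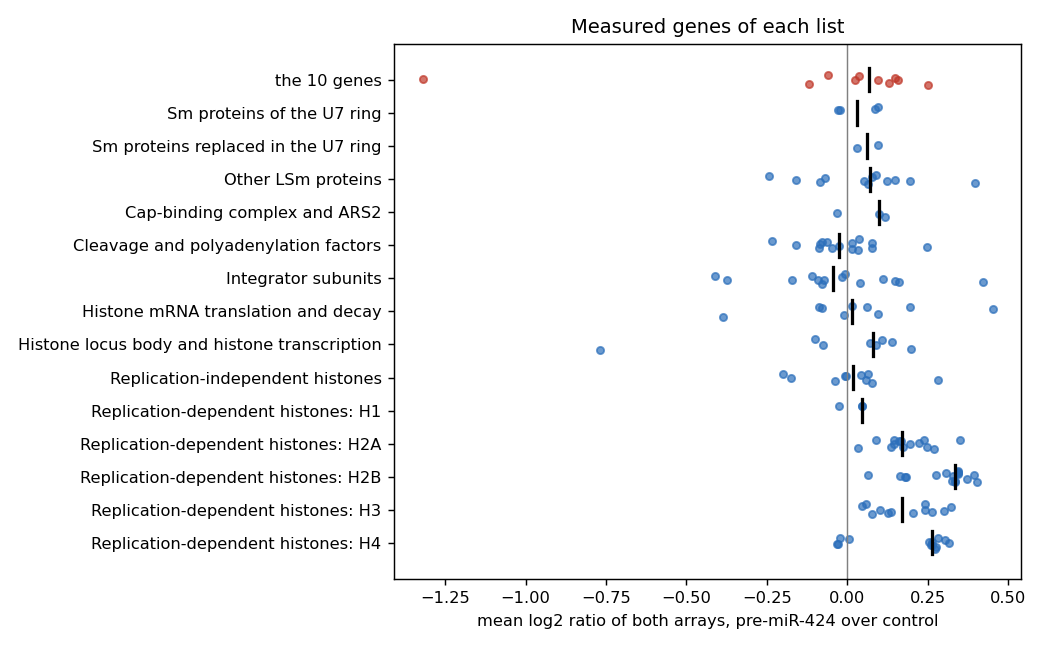
Mean log2 ratio of both arrays (x axis, pre-miR-424 over control) for each measured gene of each list (y axis); points are genes, spread vertically for legibility, and black bars are medians. LSM11, at −1.32, is the lowest point, CCNE1 follows at −0.77, and the H2B genes lie around a median of 0.34.

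The RNAs that these factors process were covered by probes for 64 of 68 replication-dependent histone genes, of which 59 were measured. Their median log2 ratio was 0.24 (0.28 in normal labelling and 0.14 in the swap, 1.18-fold). Of the 59, 47 were higher on both arrays (79.7%, against 26.8% of all measured genes). On both arrays 0 were lower (26.7% of all genes were), and 12 changed sign (46.5% of all genes did). The 17 measured H2B genes had the highest family median, 0.34, with 0.33 in normal labelling and 0.34 in the swap. Of these, 9 were higher by at least 0.3 on both (2.77% of all genes were), among them H2BC4 (0.40 and 0.41) and H2BC8 (0.37 and 0.42). The median was 0.26 for H4 (0.36 and 0.11 on the arrays), 0.17 for H3 and 0.17 for H2A, and it was 0.05 for 3 linker histones H1, for which its sign changed in 1 setting.

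The coding regions of histone genes of a family are nearly identical, so that probes of different genes can bind the same RNA and the genes are not independent. The 10 replication-independent histones, which carry poly(A) tails and are processed without the U7 snRNP, had a median of 0.02 (0.17 in normal labelling and −0.13 in the swap), with 2 higher and 2 lower on both arrays (26.8% and 26.7% of all genes were). Whether the families differ could not be tested with 1 replicate. As amplification began at poly(A) tails, the ratios of the replication-dependent genes may refer mainly to the tailed part of their transcripts. Which of their transcripts were sampled, and the part that tails had in the ratios, was not tested.

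**Figure D5:**
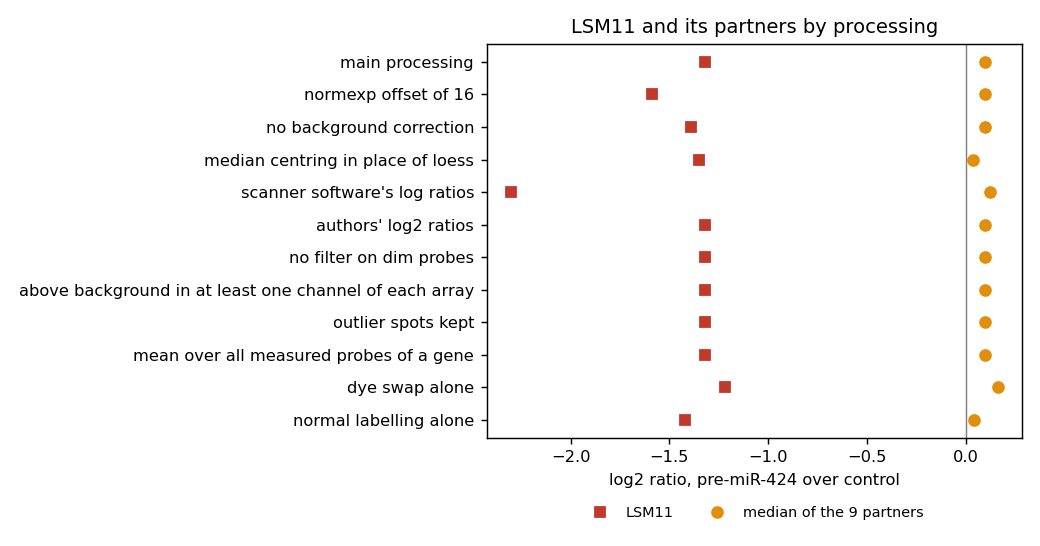
Log2 ratio of LSM11 (red squares) and median log2 ratio of its 9 partners (orange circles) on the x axis, under the main processing, each alternative and each array alone (y axis). LSM11 ranges from −2.30 to −1.22 and the partners' median from 0.03 to 0.16.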

How the data were processed

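The deposited scanner files (Agilent Feature Extraction 10.7.3.1, array design on hg19) give for each spot a median pixel intensity and local background per channel on a linear scale, not normalized, and a log10 ratio of Cy5 over Cy3 from signals that the software had corrected and dye-normalized. A further table deposited by the authors holds log2 ratios, and its steps are not given in the sources used here, beyond the name limma. Its columns, with medians of 0.024 and 0.036, correlated at 0.991 and 0.988 with the values computed here for the same arrays, so that they were taken as Cy5 over Cy3.

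Using limma 3.58.1 in R 4.3.3, normexp (offset 50, all spots) removed background, and loess within each array, with control spots set aside, removed the dye trend. The offset draws ratios of dim probes towards 0. Levels were further scaled by Aquantile. Spots of a probe were averaged and ratios turned to pre-miR-424 over control. Median signals ranged from 165 to 314 over backgrounds of 28 to 70, and 0 spots were saturated. Precision is limited by the number of arrays. Each gene took the values of the brightest of its measured probes. Of 27134 RefSeq probes, 25771 matched a symbol (GRCh38.p14 table, names only).

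The members and lists were chosen with earlier results of these data known. Genes named were the members, up to 4 genes per list with the largest ratios among those past 0.3 on both arrays, and the 5 nearest to LSM11; other genes named in the lists were chosen after their values were seen. The steps were tested on simulated data, in which changes were planted only in spots brighter than that of LSM11. The simulation therefore did not cover changes in spots as dim as that of LSM11. Alternatives numbered 12 and are described in the closing section. Python 3.11.15 was used with pandas 2.3.3 and numpy 2.4.6.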

Additional observations from a re-analysis of the deposited data

How the results depend on the processing

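LSM11 was lower with pre-miR-424 under all alternatives run, and its 9 partners had a median above 0 in each. Some of the alternatives could not change either value, as given below. The log2 ratio of LSM11 was −1.59 with a normexp offset of 16 and −2.30 with the scanner software's log ratios, against −1.32, and its distance from the partners' median was −1.69, −2.42 and, without background correction, −1.49, against −1.42. An offset draws dim probes towards 0 by construction, which bears on the first; for the other values the cause was not tested. The authors' log2 ratios left LSM11 at −1.32, the partners' median at 0.10 and the members lower on both arrays at 2, with 14 genes changed 2-fold. No filter on dim probes, a filter on 1 channel of each array and outlier spots kept could not move these member values. Nor could the mean over all probes of a gene, because each member had 1 probe, which passed every filter. Those settings gave 14 to 16 genes changed 2-fold. With each array alone, LSM11 gave −1.42 to −1.22, the partners' median 0.04 to 0.16 and the distance −1.46 to −1.38. The count of members lower on both arrays, 2, was 1 under median centring and 1 with the scanner software's ratios, and 4 to 5 with single arrays, where no repeat was asked. Median centring moved the median of all genes to 0.13 in normal labelling and −0.23 in the swap, so its values are read relative to that shift. The number of genes changed 2-fold on both arrays, 14, rose to 24 when the scanner software's ratios were used, to 140 at a threshold of 1.5-fold, and to between 43 and 76 with single arrays. The sign of the mean ratio changed in 1 or more settings for CPSF2, CPSF3, CSTF2, NPAT and SYMPK, and in 0 for the other 5 members. The median of the replication-dependent histones ranged from 0.14 to 0.28. No paired analysis was possible because each ratio is already taken within an array and the arrays form 1 group.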
